A study of Mus musculus with 4 samples.

Results

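Meiotic recombination and synapsis genes were followed as 32 members, chosen by gene symbol and without regard to their level, out of 19797 gene symbols in the RefSeq table. The cells were MC1-ZE7, a line of mouse embryonic stem (ES) cells of strain MC1 (129S6/SvEvTac) that carries an Emerald fluorescent reporter of Zscan4, a gene cluster that a small share of ES cells transcribes at any moment. Both sorted fractions carry the reporter and come from this 1 line, and both were grown without feeders in serum with leukemia inhibitory factor. The fractions were the Em+ high fraction (cells with high Emerald, n = 2 libraries) and Em- (cells without Emerald, n = 2 libraries), and total RNA depleted of ribosomal RNA was sequenced. Whether the replicate libraries of a fraction are separate cultures or separate sorts is not in the labels. The p-values therefore describe the spread among 4 libraries, which could be technical. The comparison asks whether the RNA of these genes differs between cells with and without Zscan4 transcription.

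In meiosis, programmed double-strand breaks made by SPO11 are repaired from the homologous chromosome by strand exchange, and some of these repair events mature into crossovers. At the same time, cohesin complexes with meiotic subunits organise each chromosome into an axis, and the synaptonemal complex joins the axes of the homologs. ES cells do not enter meiosis, but RNA of many of these genes is present in them, and several repressors, including a Polycomb complex with MGA and MAX, are known to hold germline genes down in ES cells.

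Library facts that touch the results are few. Counts per library summed to between 16468218 and 18953217, and the 12050 genes with a mean FPKM (the authors' read count divided by transcript length and library total) of at least 1 held 98.61 to 98.99% of them. Em+ replicate 2 stood apart in its share of counts from the ribosomal RNA precursor Rn45s, 7.95% against 3.93 to 4.33% in the other libraries. Each called gene below is therefore also given without it. That fit has 1 Em+ library and takes the spread between replicates from Em-. A smaller adjusted p there is not stronger evidence, and the fold change is the value to compare. The summed level of the 6 Zscan4 genes was 212 and 224 CPM (counts relative to the library total, scaled by the trimmed mean of M-values, TMM) in the Em+ libraries and 1.81 and 2.27 in those of Em-, as the sample titles and the cell type field have it. The description field names the opposite fraction for all 4 samples. Markers of ES cells, 8 of 8 tested, summed to 4631 and 5124 CPM in Em+ and to 5077 and 5132 in Em-. In the fit of all 19797 symbols Utf1 was called lower in Em+ (log2 fold change -0.37; edgeR adjusted p = 0.0419). It was not called among the 12050 genes (-0.31; edgeR adjusted p = 0.0923). Among those genes, edgeR counted 2 of the ES cell markers higher and 4 lower at an unadjusted p under 0.05. Of all 12050 genes, 14.5% were higher and 10.7% lower by this count. The median log2 fold change of the ES cell markers was -0.09. Their pluripotency factor Nanog was called higher in Em+, by 0.48 on the log2 scale (SE 0.08; edgeR adjusted p = 0.0192), and by 0.56 without Em+ replicate 2 (edgeR adjusted p = 8.96e-06). Nanog was not called without Em- replicate 1 (0.44; edgeR adjusted p = 0.211) or Em- replicate 2 (0.51; edgeR adjusted p = 0.0714), with adjusted p of 8.96e-06 to 0.439 over 14 alternatives, and the other 7 were not called.

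The promoters of 28 of the 32 members are in the RefSeq promoter table (build GRCm38.p6), as windows of 300 bases from 250 before to 50 after the annotated start. The remaining members are Spo11, Meiob, Tex15 and Tex11. For description, 3 motifs were searched on both strands. They were the E-box CACGTG, to which MAX and MGA can bind, the E2F core TCCCGC, and CNCCTCAG, a motif reported for the meiotic inducers STRA8 and MEIOSIN. The windows below are those of 4 genes with more RNA in Em+ (Sycp1, Sycp2, Syce1 and Rad51ap2), shown beside 2 genes of the same structures whose levels were close in both fractions (Sycp3 and Smc1b). Each is written 5′ to 3′ on the strand of its gene, with matches to any of the motifs in capitals. The bases after the start were found in a GENCODE transcript of the same gene for 26 of the 28 members but not for Rad51ap2, whose strand is given as in the promoter table.
Sycp1 (chr3:102936051-102936350, minus strand): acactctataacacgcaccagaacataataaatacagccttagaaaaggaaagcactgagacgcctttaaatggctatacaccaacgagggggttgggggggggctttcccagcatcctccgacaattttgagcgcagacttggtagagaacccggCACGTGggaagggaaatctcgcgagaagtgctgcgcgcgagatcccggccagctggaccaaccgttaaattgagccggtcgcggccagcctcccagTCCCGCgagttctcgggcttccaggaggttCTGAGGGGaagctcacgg
Sycp2 (chr2:178407609-178407908, minus strand): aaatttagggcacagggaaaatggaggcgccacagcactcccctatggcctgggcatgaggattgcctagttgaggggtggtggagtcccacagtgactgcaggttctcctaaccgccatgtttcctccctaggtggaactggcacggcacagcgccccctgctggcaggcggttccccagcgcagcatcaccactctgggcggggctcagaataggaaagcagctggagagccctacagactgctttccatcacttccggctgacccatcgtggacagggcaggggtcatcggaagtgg
Syce1 (chr7:140787805-140788104, minus strand): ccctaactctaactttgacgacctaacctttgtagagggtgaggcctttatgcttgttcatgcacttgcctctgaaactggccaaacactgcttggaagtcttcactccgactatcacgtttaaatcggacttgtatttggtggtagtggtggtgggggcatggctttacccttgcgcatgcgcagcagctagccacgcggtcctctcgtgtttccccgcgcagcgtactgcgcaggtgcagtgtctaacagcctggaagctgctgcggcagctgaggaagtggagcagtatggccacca
Rad51ap2 (chr12:11455805-11456104, plus strand): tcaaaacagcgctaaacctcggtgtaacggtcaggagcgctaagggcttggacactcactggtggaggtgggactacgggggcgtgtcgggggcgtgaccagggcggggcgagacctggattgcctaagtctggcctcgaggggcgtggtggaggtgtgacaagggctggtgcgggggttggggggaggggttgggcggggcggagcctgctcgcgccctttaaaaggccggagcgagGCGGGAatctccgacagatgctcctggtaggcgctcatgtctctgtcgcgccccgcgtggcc
Sycp3 (chr10:88459337-88459636, plus strand): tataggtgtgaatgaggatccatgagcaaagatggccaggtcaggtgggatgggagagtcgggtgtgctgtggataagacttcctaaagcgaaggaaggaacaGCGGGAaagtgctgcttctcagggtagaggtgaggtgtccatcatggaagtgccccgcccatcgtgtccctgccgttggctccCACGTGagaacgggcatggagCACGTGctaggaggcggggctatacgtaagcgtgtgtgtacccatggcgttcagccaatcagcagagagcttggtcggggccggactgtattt
Smc1b (chr15:85131908-85132207, minus strand): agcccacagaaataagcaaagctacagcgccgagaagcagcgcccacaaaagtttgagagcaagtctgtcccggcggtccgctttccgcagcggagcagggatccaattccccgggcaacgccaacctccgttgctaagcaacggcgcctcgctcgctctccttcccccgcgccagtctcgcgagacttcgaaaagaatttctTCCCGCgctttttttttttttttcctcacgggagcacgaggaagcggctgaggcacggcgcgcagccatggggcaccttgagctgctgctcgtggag

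The windows shown of genes with more RNA in Em+ had no motif in common. The window of Prdm9, also called higher without the filter but not shown, held an E2F core 230 bases upstream. Sycp1 held an E-box beginning 94 bases upstream of the start, an E2F core beginning 2 bases after it and the STRA8 motif beginning 32 bases after it. Rad51ap2 held an E2F core 12 bases upstream, and the Sycp2 and Syce1 windows held none of the 3 letter strings, which says nothing about binding outside these windows. Sycp3, whose level was close in both fractions, held E-boxes 64 and 43 bases upstream and an E2F core 147 bases upstream. Smc1b held an E2F core 47 bases upstream.

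Over all 28 windows the E2F core was found in 16, against 19.98% of 32851 promoters in the table and 25.77% of the 21263 promoters of coding genes. The E-box was found in 6 of 28, against 7.15% of all promoters, in Hormad1, Stag3, Sycp1, Sycp3, Syce2 and Tex12. The STRA8 motif was found in 7 of 28, against 7.94% of all promoters, in Hormad2, Msh5, Hfm1, Sycp1, Syce2, Tex12 and Sohlh2. Sycp1, Syce2 and Tex12 held all of these motifs, and in Syce2 an E2F core overlaps the STRA8 motif. Members' windows were rich in CpG, with a median of 18 CpG dinucleotides and 60.7% GC, against 7 and 52.7% over all promoters and 13 and 56.3% over those of coding genes. The E-box, the E2F core and the STRA8 motif all hold more G and C than A and T. The E-box and the E2F core also contain a CpG. The shares were not adjusted for this composition. The windows of Mei1 and Tex14 lie far from the start in the deposited table (12359 and 22526 bases), and without them the E2F core was in 15 of 26.

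**Figure D1:**
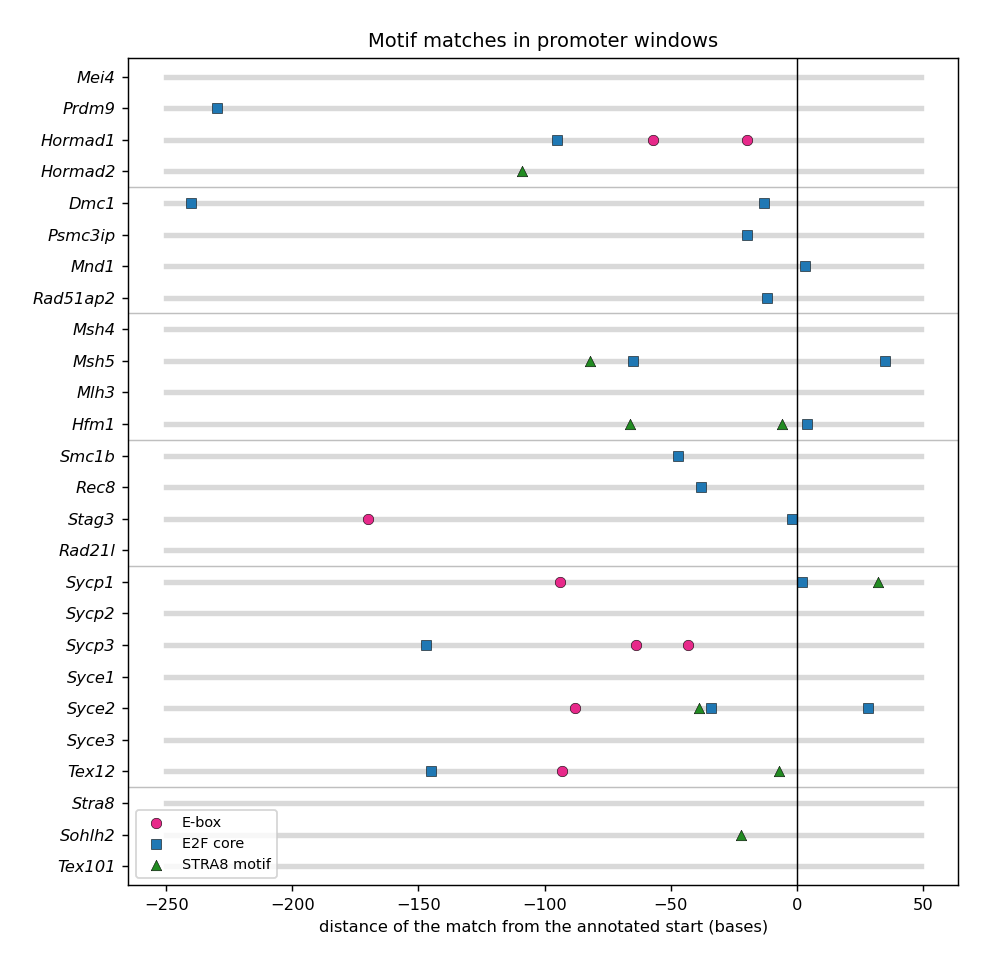
Matches to the E-box (circles), the E2F core (squares) and the STRA8 motif (triangles) in the promoter windows of the 26 members whose window lies within 100 bases of the deposited start. The horizontal axis is the distance in bases of the first base of a match from the annotated start, negative upstream, and grey lines separate the roles. Sycp1, Syce2 and Tex12 carry all of the motifs, while the Sycp2 and Syce1 rows are empty.

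RNA of the meiotic genes was present in both fractions, and most members were not called. Of the 32 members, 31 had counts in every library and 22 had an FPKM of at least 1 in every library. In all, 23 members passed the expression filter and entered the edgeR quasi-likelihood test. Of these, 3 were called higher in Em+ (Sycp1, Syce1 and Tex15), 0 were called lower and 20 were not called. Among all 12050 genes tested, 3.82% were called higher and 0.822% lower. At an unadjusted p under 0.05 the edgeR test counted 8 members higher and 1 lower, where 14.5% of all tested genes were higher and 10.7% lower. DESeq2 called 3 higher and 0 lower (4.38 and 1.25% of all tested genes), and limma on log2(FPKM + 1) called 2 higher and 0 lower (1.88 and 0.556%). The median log2 fold change of the tested members, Em+ over Em-, was 0.16, beside 0.003 over all genes tested.

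The other 9 members lay below the filter (Spo11, Mei1, Mei4, Prdm9, Rad51ap2, Msh4, Rad21l, Sycp2 and Tex101), and they were read from the fit without a filter. That fit called 6 of the 32 members higher (Sycp1, Syce1, Tex15, Sycp2, Prdm9 and Rad51ap2), with 4.48% of its 19797 symbols called higher, and 0 lower, with 1.47% called lower. At an unadjusted p under 0.05 this edgeR fit counted 10 members higher and 2 lower, where 13.5% of all symbols were higher and 10.4% lower. DESeq2 without a filter called 4 members higher and 0 lower, against 3.31 and 1.37% of all symbols. Limma without a filter called only Sycp2 among the members, on log2(FPKM + 1) and on log2(FPKM + 0.1). Of the 19797 symbols it called 266 and 282 higher and 11 and 13 lower on these scales. The members' median log2 fold change in the edgeR fit without a filter was 0.10, beside 0.029 over all symbols. The values at the edge of the filter were a mean FPKM of 1.02 for Stra8, just inside, and 0.996 for Sycp2, just outside. Stra8 passed through its Em+ level, since its mean FPKM in Em- was under 1.

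Counted by libraries, 16 of the 32 members had both Em+ values above both Em- values, where 36.2% of all symbols did. Another 3 (Mnd1, Smc1b and Syce2) had both below, where 20.5% of all symbols did, and 13 overlapped. The summed level of the 32 members was 1118 and 1194 CPM in the Em+ libraries and 1029 and 1039 in those of Em-. Stag3 and Smc1b, not called with or without the filter, weigh most in these sums. Stag3 had a mean of 279 CPM in Em+ and 236 in Em-, and Smc1b 236 and 243. In sorted bulk RNA, fewer cells with a transcript and less transcript per cell cannot be told apart.

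**Figure D2:**
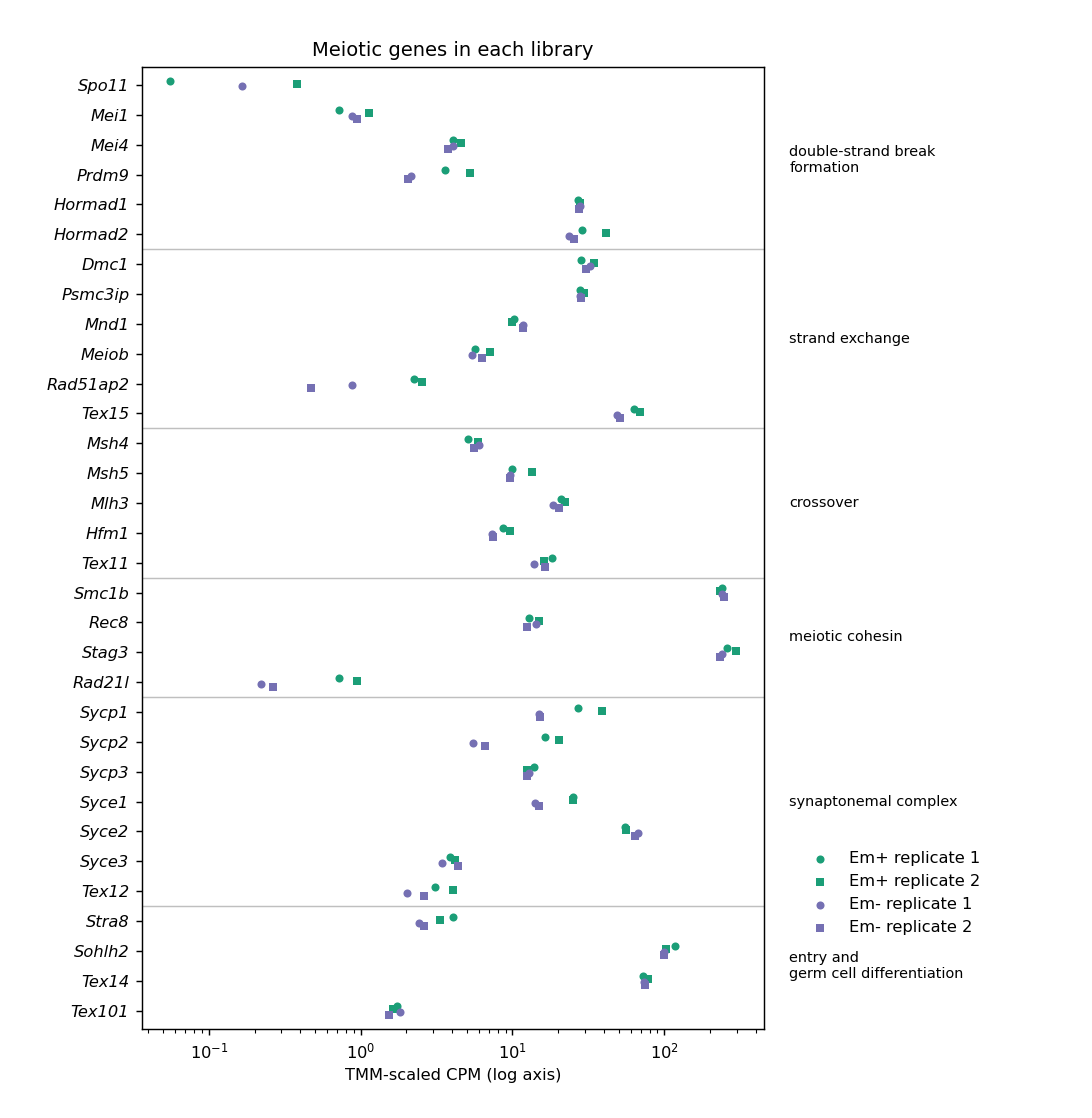
TMM-scaled CPM (log axis) of each member in each library, green for Em+ and purple for Em-, circles for replicate 1 and squares for replicate 2, grouped by role. A count of 0 cannot be drawn on the log axis, which leaves out Spo11 in Em- replicate 2. Stag3 and Smc1b lie at 233 to 297 CPM, far above Spo11, Mei1 and Rad21l, and the Sycp1, Sycp2 and Syce1 points of the fractions lie apart.

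Per length of transcript, the members spanned a wide range. By deposited FPKM averaged over the 4 libraries, Stag3 (29.0), Smc1b (28.5) and Syce2 (24.5) stood highest, followed by Sohlh2 (21.5), Psmc3ip (14.0) and Hormad2 (10.5). A middle range ran through Hormad1 (7.99), Tex14 (7.48), Dmc1 (6.81), Syce1 (6.41), Mnd1 (6.06) and Sycp3 (5.54) to Syce3 (3.98), Tex15 (3.28), Sycp1 (3.25) and Rec8 (3.18). Tex11 (2.84), Tex12 (2.25), Mlh3 (1.81), Msh5 (1.77), Meiob (1.71) and Hfm1 (1.48) followed. Below 1 FPKM lay Sycp2 (0.996), Msh4 (0.84), Tex101 (0.765), Mei4 (0.644), Prdm9 (0.44), Rad51ap2 (0.223), Rad21l (0.15), Mei1 (0.11) and Spo11 (0.039), the lowest. This order holds for the RefSeq transcript models, and some levels differ in other tables. Tex14 had 1302 and 1238 counts in Em+ in the RefSeq table but 319 and 307 in the Ensembl table. Msh4 had 92 and 94 counts in Em+ in the RefSeq table but 5 and 8 in the Ensembl table.

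Of the 6 members called with or without the filter, 3 belong to the synaptonemal complex. SYCP1 forms the transverse filaments that bridge the paired axes, SYCP2 and SYCP3 are lateral element proteins on those axes, and SYCE1, SYCE2, SYCE3 and TEX12 make up the central element. Sycp1, Syce1 and, without the filter, Sycp2 rose in Em+, while Sycp3, Syce2, Syce3 and Tex12 were not called.

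Sycp1 was measured at 27.1 and 38.9 CPM in the Em+ libraries and at 14.9 and 15.1 in those of Em-. Both Em+ libraries were above both Em- libraries, with a wider gap within Em+ than within Em-. Its mean was 33.0 ± 8.36 CPM in Em+ and 15.0 ± 0.125 in Em- (SD, n = 2 each), a 2.2-fold difference (fitted log2 fold change 1.13, SE 0.17; edgeR adjusted p = 0.00979). Without Em+ replicate 2 the log2 fold change was 0.85 (edgeR adjusted p = 0.000355). Over the 14 alternatives run it stayed between 0.72 and 1.38 and past the threshold. Limma is among these only with the filter. Without the filter, limma called neither Sycp1 nor Syce1 on log2(FPKM + 1) or log2(FPKM + 0.1).

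Syce1 was at 25.1 CPM in both Em+ libraries and at 14.1 and 15.0 in Em- replicates 1 and 2. The replicates lay close together in both fractions. Its means of 25.1 ± 0.00294 and 14.5 ± 0.633 CPM (SD, n = 2 each) differed 1.73-fold (fitted log2 fold change 0.79, SE 0.10; edgeR adjusted p = 0.0042). It was 0.79 again without Em+ replicate 2 (edgeR adjusted p = 0.000808), and between 0.54 and 0.83 over 14 alternatives, past the threshold in each.

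Sycp2 was lower in level than Sycp1, with 294 and 321 counts in Em+ and 100 and 126 in Em-, or 16.4 and 20.3 CPM against 5.5 and 6.64. The fractions did not overlap. The means, 18.3 ± 2.75 and 6.07 ± 0.809 CPM (SD, n = 2 each), differed 3.02-fold, and the log2 fold change without the filter was 1.53 (SE 0.15; edgeR adjusted p = 0.000228). Leaving out Em+ replicate 2 gave 1.4 (edgeR adjusted p = 0.00116), and all 13 alternatives kept it past the threshold, at 0.67 to 1.68.

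Sycp3 was not called, at 13.9 and 12.5 CPM in Em+ and 12.8 and 12.5 in Em- (fitted log2 fold change 0.06, SE 0.12; edgeR adjusted p = 0.765). Its value is uncertain, since 52.2% of its exonic bases overlap Chpt1 on the opposite strand and the use of strand in counting is not given. Syce2 had its lower values in Em+, 55.1 and 55.7 CPM in Em+ replicates 1 and 2 against 67.1 and 63.8 in Em-. The libraries did not overlap, but the difference of the means, 55.4 ± 0.372 against 65.5 ± 2.33 CPM (SD, n = 2 each), was not called (log2 fold change -0.24, SE 0.08; edgeR adjusted p = 0.112). It was called lower without Em+ replicate 1 (-0.23; edgeR adjusted p = 0.0106) and without Em+ replicate 2 (-0.25; edgeR adjusted p = 0.0176), and the adjusted p ran from 0.0106 to 0.694 over 14 alternatives.

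The smallest central element genes had few counts. Syce3 lay at 3.9 and 4.17 CPM in Em+ and 3.41 and 4.37 in Em-, which overlap. Tex12 lay at 3.07 and 4.04 CPM in Em+ and 2.03 and 2.63 in Em-, without overlap, and was not called (log2 fold change 0.59; edgeR adjusted p = 0.174). Without Em+ replicate 1 Tex12 was called (0.79; edgeR adjusted p = 0.0325), within a range of adjusted p from 0.0325 to 0.709 over 14 alternatives.

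**Figure D3:**
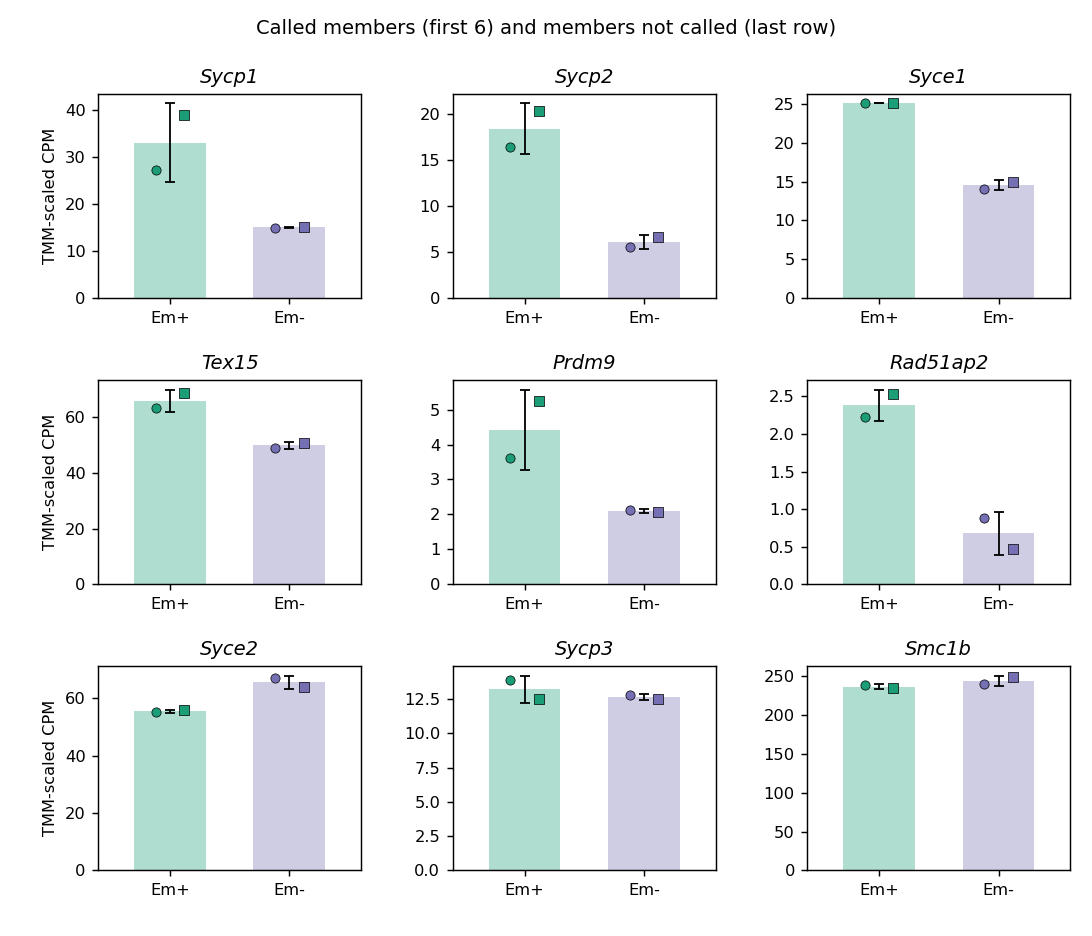
TMM-scaled CPM of the 6 members called higher with or without the filter (upper rows) and of Syce2, Sycp3 and Smc1b, which were not called (lower row). Bars are means of 2 libraries with SD, circles are replicate 1 and squares replicate 2, and each axis starts at 0. The Em+ bars of Sycp1, Sycp2 and Rad51ap2 stand at 2.2 to 3.51 times those of Em-, while the Sycp3 and Smc1b bars are nearly level.

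The meiotic cohesin genes were the most abundant group and were not called. SMC1B replaces the somatic subunit SMC1A, REC8 and RAD21L replace the kleisin RAD21, and STAG3 replaces STAG1 or STAG2. Stag3 was at 260 and 297 CPM in the Em+ libraries and at 238 and 233 in those of Em-, with Em+ above Em- in each library. Its means of 279 ± 26.1 and 236 ± 3.63 CPM (SD, n = 2 each) were 1.18-fold apart (fitted log2 fold change 0.24, SE 0.08; edgeR adjusted p = 0.124). It was called without Em+ replicate 1 (0.33; edgeR adjusted p = 0.000116) and without Em+ replicate 2 (0.14; edgeR adjusted p = 0.0299), and its adjusted p over 14 alternatives ran from 0.000116 to 0.8.

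Smc1b lay at 238 and 234 CPM in Em+ and 239 and 248 in Em-, so that the fractions nearly met. Its means were 236 ± 3.19 and 243 ± 6.57 CPM (SD, n = 2 each) (fitted log2 fold change -0.04, SE 0.06; edgeR adjusted p = 0.683). Rec8 overlapped between the fractions, at 12.9 and 15.0 CPM in Em+ and 14.3 and 12.4 in Em-. Rad21l was sparse, with 13 and 15 counts in Em+ and 4 and 5 in Em-. The Rad21l ratio of mean CPM was 3.46, and its log2 fold change without the filter was 1.69 (SE 0.50; edgeR adjusted p = 0.0804). Without Em+ replicate 1 Rad21l was called (1.86; edgeR adjusted p = 0.0418), with adjusted p between 0.0418 and 0.361 over 13 alternatives.

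Set beside their somatic counterparts per length, the meiotic subunits differed widely. Stag3 FPKM was 2.32 and 2.61 times that of Stag1 in Em+ and 2.22 and 2.12 times in Em-, and 1.86 and 2.11 times that of Stag2 in Em+ and 1.62 and 1.47 times in Em-. Smc1b stood at 70.4 and 82.5% of Smc1a in Em+ and at 64.1 and 65.1% in Em-. The level of Stag3 depends on the transcript models, with 4672 and 4706 counts in Em+ and 4336 and 4425 in Em- in the RefSeq table but 1863 and 1966 against 1820 and 1807 in the known-gene table. That of Smc1b does too, with 4273 and 3699 counts in Em+ in the RefSeq and known-gene tables but 2637 and 2271 in the Ensembl table. These RefSeq ratios were above 1 for Stag3 and below 1 for Smc1b in each of the 4 libraries. The kleisins were far below Rad21: Rec8 reached 5.42 and 5.7% of it in Em+ and 6.9 and 6.03% in Em-, and Rad21l 0.378 and 0.447% in Em+ and 0.131 and 0.157% in Em-. The deposited FPKM of Smc1a itself was 41.0 and 29.3 in Em+ and 46.7 and 47.9 in Em-, lowest in Em+ replicate 2.

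**Figure D4:**
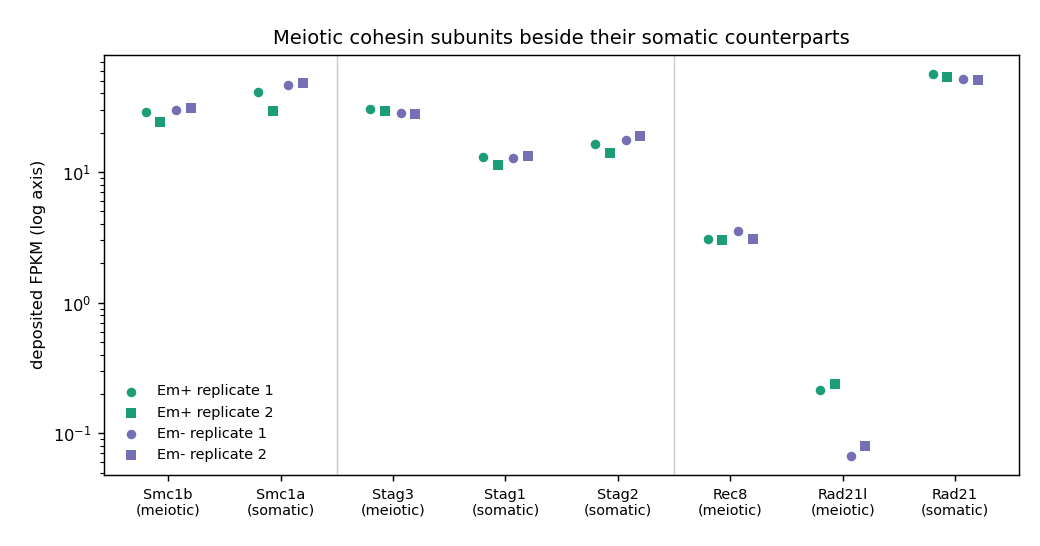
Deposited FPKM (log axis) of meiotic cohesin subunits beside the somatic genes Smc1a, Rad21, Stag1 and Stag2, with Em+ in green and Em- in purple, circles for replicate 1 and squares for replicate 2. Stag3 lies above Stag1 and Stag2, Smc1b lies somewhat below Smc1a, and Rec8 and Rad21l lie far below Rad21.

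Among the strand exchange genes, Tex15 and Rad51ap2 were called and the recombinase and its partners were not. DMC1 is the meiotic recombinase, PSMC3IP (HOP2) and MND1 form the heterodimer that assists it, MEIOB binds single-stranded DNA at breaks, and TEX15 is needed for meiotic recombination and also acts in silencing transposons of male germ cells.

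Tex15 was at 63.1 and 68.7 CPM in the Em+ libraries and at 48.9 and 50.7 in Em-, without overlap. Its means, 65.9 ± 3.98 and 49.8 ± 1.29 CPM (SD, n = 2 each), were 1.32-fold apart (fitted log2 fold change 0.40, SE 0.08; edgeR adjusted p = 0.0365), and 0.34 without Em+ replicate 2 (edgeR adjusted p = 0.00355). The call was lost without Em- replicate 1 (0.37; edgeR adjusted p = 0.265), without Em- replicate 2 (0.43; edgeR adjusted p = 0.112), with limma on log2(FPKM + 1) (adjusted p = 0.361) or log2(FPKM + 0.1) (adjusted p = 0.356), and in the known-gene table (edgeR adjusted p = 0.0574). Tex15 thus passed under 9 of 14 alternatives, with adjusted p from 0.000178 to 0.361.

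Rad51ap2 had 40 counts in each Em+ library and 16 and 9 in Em- replicates 1 and 2, or 2.23 and 2.53 CPM against 0.879 and 0.474. The fractions lay apart at a low level. The means of 2.38 ± 0.21 and 0.677 ± 0.286 CPM (SD, n = 2 each) were 3.51-fold apart, with a log2 fold change without the filter of 1.75 (SE 0.34; edgeR adjusted p = 0.0161). Without Em+ replicate 2 it was 1.68 (edgeR adjusted p = 0.0392), and the call was lost in limma on log2(FPKM + 1) (0.27; adjusted p = 0.0847) and log2(FPKM + 0.1) (1.1; adjusted p = 0.125), with adjusted p from 1.75e-05 to 0.125 over 13 alternatives.

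Dmc1 overlapped between fractions, at 28.4 and 34.4 CPM in Em+ and 32.6 and 30.6 in Em-. Psmc3ip did too, at 27.7 and 29.6 CPM in Em+ and 27.9 and 28.2 in Em-. Its partner Mnd1 was lower in both Em+ libraries, 10.3 and 9.98 CPM against 11.8 in both Em- libraries, and was not called (log2 fold change -0.22, SE 0.11; edgeR adjusted p = 0.264). The log2 fold change of Psmc3ip was 0.03 (edgeR adjusted p = 0.847), so neither gene of the heterodimer was called. Psmc3ip is uncertain as a single value, since 21.2% of its exonic bases overlap Mlx on the opposite strand. Meiob was at 5.69 and 7.07 CPM in Em+ and 5.39 and 6.27 in Em-, which overlap.

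Break formation genes were mostly sparse, and Prdm9 was the one of them called higher. PRDM9 writes the histone methylation that marks recombination hotspots, SPO11 is the catalytic subunit that cuts there, MEI1 and MEI4 are needed for cutting, and the HORMA domain proteins HORMAD1 and HORMAD2 bind unsynapsed axes. Prdm9 had 65 and 83 counts in Em+ and 39 in each Em- library, or 3.62 and 5.24 CPM against 2.14 and 2.06. Its means were 4.43 ± 1.15 and 2.1 ± 0.0625 CPM (SD, n = 2 each), 2.11-fold apart, with a log2 fold change without the filter of 1.01 (SE 0.23; edgeR adjusted p = 0.0354). The call was lost without Em+ replicate 2 (0.75; edgeR adjusted p = 0.0841), without Em- replicate 2 (0.98; edgeR adjusted p = 0.0557), in DESeq2 (adjusted p = 0.108) and in limma on log2(FPKM + 1) (adjusted p = 0.164) or log2(FPKM + 0.1) (adjusted p = 0.211). Adjusted p ran from 0.000307 to 0.211 over 13 alternatives, with 8 of them past the threshold.

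Spo11 itself was barely detected. It had 1 and 6 counts in Em+ and 3 and 0 in Em-. Mei1 had 13 and 18 counts in Em+ and 16 and 18 in Em-. Mei4 had 73 counts in each Em+ library and 74 and 71 in Em-, at 4.07 and 4.61 CPM against 4.07 and 3.74. Spo11 and Mei1 overlapped between the fractions, and for Mei4 the lowest Em+ value and the highest Em- value were equal to 3 digits.

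Hormad1 was level, at 27.1 and 27.8 CPM in Em+ and 27.7 and 27.4 in Em- (log2 fold change -0.00, SE 0.08; edgeR adjusted p = 0.985). Hormad2 was at 28.8 and 41.4 CPM in Em+ and 23.6 and 25.4 in Em-, with the highest value in Em+ replicate 2. Its means of 35.1 ± 8.93 and 24.5 ± 1.29 CPM (SD, n = 2 each) were 1.43-fold apart and not called (log2 fold change 0.52, SE 0.16; edgeR adjusted p = 0.112). Hormad2 was called without Em+ replicate 1 (0.76; edgeR adjusted p = 7.27e-05) and without Em- replicate 2 (0.57; edgeR adjusted p = 0.0165), within a range of adjusted p from 7.27e-05 to 0.29 over 14 alternatives.

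None of the 5 crossover genes was called by edgeR. MSH4 and MSH5 form the complex that stabilises crossover intermediates, the helicase HFM1 and TEX11 act with it, and MLH3 is part of the endonuclease that resolves them. Hfm1 was at 8.7 and 9.66 CPM in Em+ and 7.37 and 7.48 in Em-, without overlap (log2 fold change 0.30, SE 0.13; edgeR adjusted p = 0.197). Mlh3 was at 21.0 and 22.3 CPM in Em+ and 18.5 and 20.3 in Em-, also without overlap (log2 fold change 0.16, SE 0.10; edgeR adjusted p = 0.372).

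Msh5 was at 9.98 and 13.5 CPM in Em+ and 9.56 and 9.7 in Em-, and its log2 fold change of 0.28 was not called (edgeR adjusted p = 0.316). Without Em+ replicate 1, which leaves the higher Em+ value, Msh5 was called (0.48; edgeR adjusted p = 0.0144), within adjusted p of 0.0144 to 0.834 over 14 alternatives. Its partner Msh4, below the filter, overlapped at 5.13 and 5.94 CPM in Em+ and 6.05 and 5.59 in Em-. Tex11, an X-linked gene, overlapped too, at 18.3 and 16.2 CPM in Em+ and 13.8 and 16.4 in Em-.

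The genes of meiotic entry and germ cell differentiation were not called. STRA8 is the retinoic acid-induced factor that starts the meiotic program, SOHLH2 is a germ cell transcription factor, TEX14 builds the intercellular bridges of germ cells, and TEX101 is a surface protein of germ cells. Stra8 was at 4.07 and 3.35 CPM in Em+ and 2.42 and 2.63 in Em-, without overlap (log2 fold change 0.56, SE 0.20; edgeR adjusted p = 0.147). Tex14 was at 72.6 and 78.2 CPM in Em+ and 73.2 and 74.1 in Em- (log2 fold change 0.03, SE 0.07; edgeR adjusted p = 0.812). Sohlh2 was the highest of the 4, at 118 and 103 CPM in Em+ and 98.9 and 99.4 in Em-. Its log2 fold change of 0.16 was not called (edgeR adjusted p = 0.258), though it was without Em+ replicate 2 (0.25; edgeR adjusted p = 0.00634), within adjusted p of 0.00634 to 0.98 over 14 alternatives. Tex101 had 31 and 26 counts in Em+ and 33 and 29 in Em-.

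**Figure D5:**
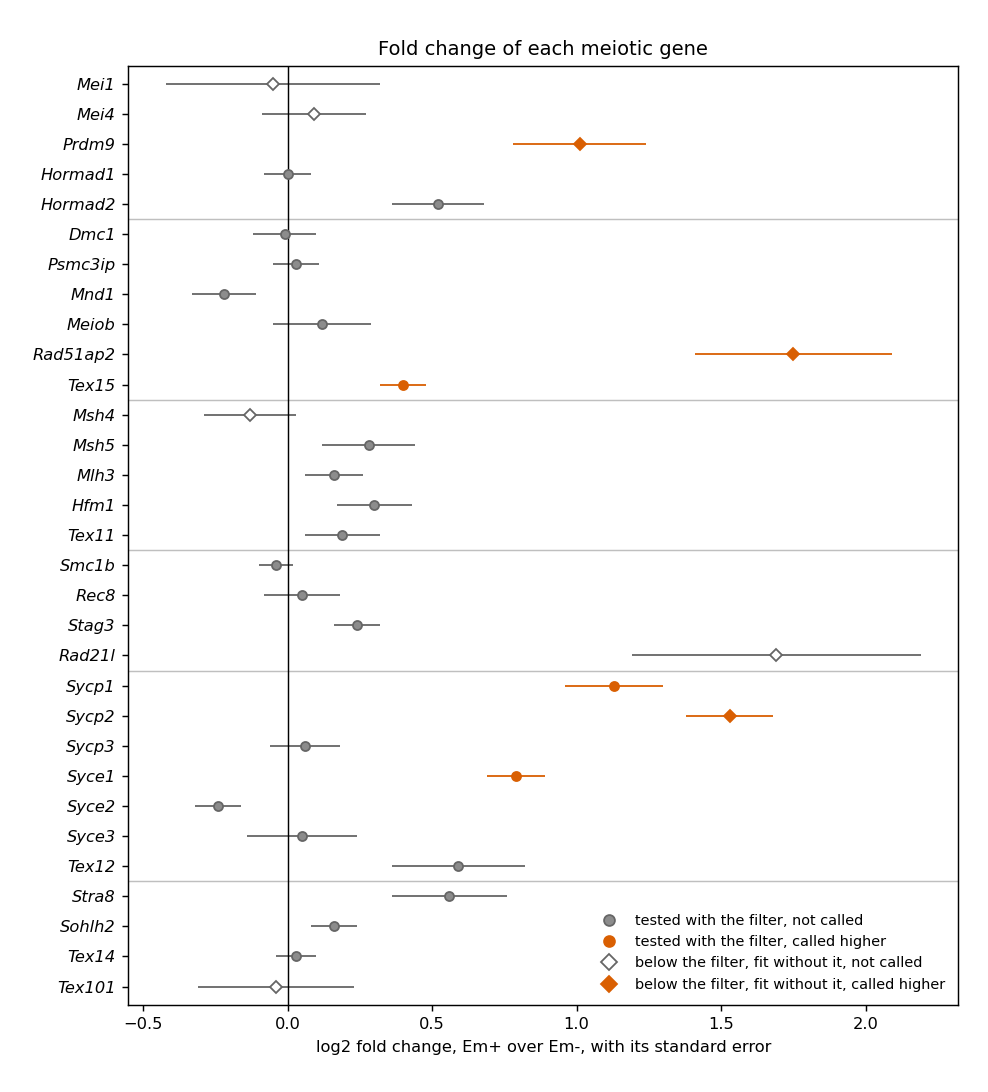
Log2 fold change, Em+ over Em-, of 31 members with its standard error, grouped by role. Circles are members tested with the expression filter, diamonds are members below it, taken from the fit without a filter, and orange marks those called higher. Sycp2, Rad51ap2, Sycp1, Prdm9, Syce1 and Tex15 are orange. Spo11, with 0 to 6 counts in a library, is left out.

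Genes that work with the members were read in 4 lists. Of 30 other meiotic prophase genes 21 have a line in the table and 16 were tested, with 3 called higher, 0 lower and a median log2 fold change of 0.14. Over all genes tested, 3.82% were called higher and the median was 0.003. Dazl, which encodes an RNA-binding protein that licenses germ cells for meiosis, was at 205 and 193 CPM in Em+ and 100 and 102 in Em- (log2 fold change 0.98, SE 0.06; edgeR adjusted p = 0.00012). Taf7l, a germ cell paralog of the transcription initiation factor TAF7, was at 25.8 and 25.0 CPM in Em+ and 12.3 and 13.7 in Em- (log2 fold change 0.97, SE 0.11; edgeR adjusted p = 0.00212). Their means were higher in Em+ by 1.97-fold for Dazl and 1.96-fold for Taf7l, and stayed called without Em+ replicate 2, at 1.02 and 0.99. Fkbp6, a co-chaperone needed for synapsis and for the piRNA pathway, was at 13.5 and 13.8 CPM in Em+ and 8.08 and 9.49 in Em- (log2 fold change 0.64, SE 0.13; edgeR adjusted p = 0.0363), and 0.62 without Em+ replicate 2. The Fkbp6 call was lost without Em- replicate 1 (0.53; edgeR adjusted p = 0.184) and under 6 of 14 alternatives in all, with adjusted p from 0.00418 to 0.184.

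The general recombination genes, which also serve repair in dividing cells, gave 1 call among 32 tested, near the 3.82% of all genes, with 0 lower and a median log2 fold change of -0.03. It was Brca2, a mediator of homologous recombination, at 399 and 461 CPM in Em+ and 311 and 322 in Em- (log2 fold change 0.44, SE 0.08; edgeR adjusted p = 0.0315), and 0.33 without Em+ replicate 2. Brca2 was not called without Em- replicate 1 (0.41; edgeR adjusted p = 0.219) or Em- replicate 2 (0.47; edgeR adjusted p = 0.0927), and its adjusted p ran from 5.1e-06 to 0.35 over 14 alternatives. At an unadjusted p under 0.05, 2 of these genes were higher and 4 lower in edgeR. Over all tested genes, 14.5% were higher and 10.7% lower by this count. The 13 somatic cohesin genes gave 0 calls in edgeR, with 3 higher and 1 lower at an unadjusted p under 0.05 and a median of 0.04. The largest difference among them was that of the cohesin regulator Pds5b, at 114 and 152 CPM in Em+ and 103 and 110 in Em- (log2 fold change 0.32; edgeR adjusted p = 0.175), called without Em+ replicate 1 (0.52; edgeR adjusted p = 6.5e-05).

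Genes known to keep germline genes silent in ES cells, such as Mga, Max, L3mbtl2, Pcgf6, E2f6 and the DNA methyltransferases, gave 0 calls among 22 tested in edgeR. At an unadjusted p under 0.05, 1 was higher and 1 lower, where 14.5% of all tested genes were higher and 10.7% lower. The median log2 fold change of the 22 was -0.03. The largest value was that of Hdac1, a histone deacetylase gene with near-identical copies whose reads the counting may split, at 18.5 and 25.8 CPM in Em+ and 15.9 and 15.1 in Em- (log2 fold change 0.51; edgeR adjusted p = 0.114). Hdac1 was called without Em+ replicate 1 (0.73; edgeR adjusted p = 0.000381), within adjusted p of 0.000381 to 0.257 over 14 alternatives.

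Markers of other cell types were mostly near the bottom of the range. Spermatocyte and spermatid markers, 9 of 10 with a line in the table, summed to at most 11.5 CPM in Em+ and to 9.45 and 10.2 in Em-. Ldhc made up most of these sums, with 126 and 106 counts in Em+ and 108 and 142 in Em-, and was not called. Zpbp had 41 and 39 counts in Em+ and 41 and 37 in Em-. The spermatid genes Prm1, Prm2 and Tnp1 had 0 to 3 counts in a library. Primordial germ cell markers, 7 of 7 tested, summed to 235 and 255 CPM in Em+ and 210 and 219 in Em-, with 0 called by edgeR. At an unadjusted p under 0.05, 3 of them were higher, where 14.5% of all tested genes were. Nanos3, among these 3, passed the filter through its Em+ level, with a mean FPKM of 1.31 in Em+ and 0.932 in Em-. Primitive endoderm and mesendoderm markers summed to 24.7 and 24.3 CPM in Em+ and 24.0 and 22.1 in Em-. Oocyte markers summed to 8.53 and 7.33 CPM in Em+ and 4.01 and 4.11 in Em-, and 0 of 7 passed the filter. Nobox, an oocyte transcription factor among them, had 35 and 20 counts in Em+ and 2 and 1 in Em-. It was singled out after its values were seen. Without the filter Nobox was called higher (log2 fold change 4.16, SE 0.59; edgeR adjusted p = 0.00286), and the other oocyte markers were not called. The Nobox value was 4.45 without Em+ replicate 2, and its call was lost in limma on log2(FPKM + 1) (0.44; adjusted p = 0.124).

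Of the fibroblast markers, 4 of 5 have a line in the table and only Thy1 was called. They summed to 26.2 CPM in each Em+ library and to 14.2 and 15.3 in Em-. Thy1 made up most of that sum, at 20.5 and 19.5 CPM in Em+ and 10.5 and 11.2 in Em- (log2 fold change 0.89, SE 0.11; edgeR adjusted p = 0.00386), and with Em+ replicate 2 left out the fitted value was 0.92 (edgeR adjusted p = 0.000602). Without the filter Col1a1, with 45 and 47 counts in Em+ and 18 and 28 in Em-, and Col1a2, with 18 and 21 against 12 and 8, were not called (edgeR adjusted p = 0.0528 and 0.161). Pdgfra overlapped between the fractions, at 2.17 and 2.34 CPM in Em+ and 2.09 and 2.21 in Em-. The part of these cell types in the differences of Sycp1, Sycp2, Syce1 and the other called members was not tested.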

How the data were processed

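The authors deposited 4 tables that share libraries but use different transcript models (RefSeq, Ensembl, ENCODE, known-gene). Per the file headers, each holds a raw count and an FPKM value for each of the 4 libraries and each transcript. The submitters' processing notes name Bowtie2 and build mm10. The counting program, its use of strand and its treatment of reads with several matches: not given in the sources used here.

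The RefSeq table was used, with counts and FPKM summed per symbol. There, and in the Ensembl table, Em- replicate 1 has a count column of zeros. Its counts were computed as the deposited FPKM times length times library total, which returned the deposited count for 99.93 to 99.95% of 24538 transcripts in the libraries with both columns. Groups came from sample titles. The 12050 genes averaging an FPKM of 1 or more were tested with edgeR 4.0.16 in R 4.3.3 (quasi-likelihood, TMM scaling, two-sided, Benjamini-Hochberg adjustment over all genes tested, threshold 0.05). The biological coefficient of variation was 0.0731. Calls on members below the filter came from the same fit without a filter. Alternatives were DESeq2 1.42.0, limma 3.58.1 on log2(FPKM + 1) and log2(FPKM + 0.1), another scaling, other filters, other tables, each library left out, and a replicate block. The edgeR step was tested on simulated data. CPM are counts relative to the TMM-scaled library total and fix no absolute amount of RNA.

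The members and lists were chosen with earlier results of these data known. Each member was named with its libraries' values, with full statistics for called members and for the largest and smallest fold change of each role. Other pathway genes were named where called, or else the largest of each list. Marker genes were named by their role in defining a cell type or after their values were seen. Promoters are RefSeq windows of GRCm38.p6, and exon overlaps come from GENCODE.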

Additional observations from a re-analysis of the deposited data

How the results depend on the processing

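Fold changes of 31 members were recomputed 423 times. Of these, 399 kept their side of the threshold, 12 fell out of the calls, 12 entered them, and 0 of the called values changed sign. Among the 399, 50 changed sign without being called in either fit, over 14 members. The number of members called higher, 3, became 6 without a filter and 6 with a filter of 10 counts over the 4 libraries, where the added genes lie below the FPKM filter. It was 5 in the Ensembl table and 5 in the ENCODE table, an alternative chosen after seeing the data, and 2 to 7 when 1 library was left out. The number called lower, 0, was 0 to 1 with 1 library left out. Over the related gene lists, 4 called higher became 2 with limma on log2(FPKM + 1), 2 on log2(FPKM + 0.1), and 2 to 22 with 1 library left out, while 0 lower became 0 to 20. The highest of these came without Em+ replicate 1, where all-gene calls rose from 460 to 2642 higher and from 99 to 2350 lower. There, and without Em+ replicate 2, the lone Em+ library is assumed to vary like Em-. Over the tested genes, the deviations of same-numbered libraries from their fraction means had a correlation of 0.016. This cannot tell whether same-numbered libraries were prepared together, which is not in the labels. A replicate block gave 4 members higher and 0 lower, with Hormad2 added, and 6 related genes higher and 1 lower, among 1090 genes higher and 462 lower in all. Without a filter, the replicate block called 8 members higher and 1 lower, with Hormad2, Rad21l (1.7; edgeR adjusted p = 0.0449) and, lower, Syce2 added. Over all 19797 symbols that fit called 1685 higher and 862 lower. The deposited FPKM carry no scaling between libraries, which puts the median log2 fold change of all tested genes at -0.135 in limma on log2(FPKM + 1), against 0.003 with TMM. Spo11, Mei1, Rad21l and Rad51ap2 rest on few counts, and for them smaller differences were not detectable at this depth.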

Other observations

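The called genes were also read in the other transcript tables, which differ in the models they hold. Sycp1, Syce1 and Rad51ap2 had the same counts in all 4 tables. Prdm9 summed to 104 and 132 counts in Em+ and 61 and 59 in Em- in the Ensembl table (the Em- replicate 1 counts of this table are also computed from FPKM), and to 82 and 96 against 51 and 44 in the known-gene table. Sycp2 summed to 236 and 247 counts in Em+ and 82 and 96 in Em- in the Ensembl table, and to 270 and 294 against 87 and 116 in the known-gene table. In each of these tables both Em+ libraries were above both Em- libraries for Prdm9 and Sycp2.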
